A study of Mus musculus with 22 samples.

Results

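The 9 genes described here are the complement subunits C1qa, C1qb and C1qc, the lysosomal protease gene Ctss, the immune receptor gene Trem2, the adaptor genes Tyrobp and Fcer1g, and the microglial surface genes P2ry12 and Tmem119. They were taken by symbol from a table of 5′ ends of transcripts, where they held 29 of 112460 deposited features, and were summed to 9 of 15297 genes. The animals were male C57BL/6 mice 16 to 20 weeks old, and the tissue was the M1 area of cortex, the primary motor cortex. BERKO mice are estrogen receptor beta knockouts (ERβ-/-), which lack the product of Esr2, and the labels name no restriction of the deletion to a cell type. The other group was WT. From each of 6 WT and 5 BERKO mice a right and a left needle biopsy was sequenced, 22 biopsies in all, with no treatment. BERKO mice 2 to 6 were analysed, since the submitters had removed a BERKO sample as an outlier, so the label BERKO replicate 1 does not occur. The comparison asks whether these microglial transcripts differed between the genotypes, and between the sides of the cortex.

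Microglia are the resident macrophages of the brain. C1q starts the classical complement cascade and is assembled from the products of C1qa, C1qb and C1qc, which in brain come mainly from microglia. Trem2 binds lipids and lipoproteins at the cell surface and signals through the adaptor that Tyrobp encodes, while the adaptor from Fcer1g serves Fc receptors. Cathepsin S, the product of Ctss, cuts proteins in the lysosome, and P2ry12 and Tmem119 mark microglia in undisturbed tissue.

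Levels are given as CPM (counts per 1000000 reads in genes) after TMM scaling (a correction for library composition). The unit of comparison is the mouse, with both biopsies and all sequencing runs summed. A biopsy held 249751 to 2018830 reads in all, and a mouse 1353210 to 2722670 gene reads in WT and 968219 to 1626680 in BERKO, so BERKO levels rest on fewer reads. Esr2 had 13 reads in all, 3 in 1 WT biopsy and 10 in 2 BERKO biopsies, with 19 biopsies at 0, so its reads give no check of the genotype labels. On the first principal component of 5419 genes (15.1% of the variance) both biopsies of WT mouse 1 (-41.7 and -49.9) and the left biopsy of WT mouse 2 (-43.8) stood apart from the other 19, which lay between -9.55 and 19.7. Column names hold a code that was read as a plate well, though they name no plate. On that reading WT and BERKO biopsies, and right and left biopsies, lay in different plate rows. Such a row cannot be told apart from genotype or side. Of 17 other microglial markers, 16 had reads, and Irf8 was at 0 reads in all 22 biopsies. Border macrophage and monocyte markers were also read, with 1344 reads over 15 genes against 14821 over the microglial markers. Pf4 (304 reads), Cd38 (249), Cbr2 (211) and Lyz2 (127) led them, and Ccr2 had 1 read. The tissue is whole cortex, so a difference in these genes cannot be split into fewer or more microglia and less or more RNA per microglial cell.

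Because the assay reads the 5′ end of each transcript, the position of the reads shows where the 5′ ends of each gene's RNA were found. Each of the 29 features was sorted as promoter class (5′ UTR or upstream of a coding gene) or gene body class (CDS, 3′ UTR or intron), which gave 9 promoter and 20 gene body features. In 7 of the genes 91.8% to 100% of the reads began in the promoter class, against 81.8% for the reads of all genes. All 1905 reads of Tyrobp lay in a single 5′ UTR feature on chromosome 7 at 31198839 (mm9, plus strand). Ctss had 3444 of 3508 reads (98.2%) in its 5′ UTR feature on chromosome 3 at 95330753, and Trem2 had 885 of 900 (98.3%) in its own on chromosome 17 at 48485812, both on the plus strand. Fcer1g had 843 of 846 reads (99.6%) at 173164439 on chromosome 1, minus strand. Tmem119 differed in class: 583 of 635 reads (91.8%) lay upstream of the annotated transcript, at 114250460 on chromosome 5.

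The 2 exceptions were P2ry12, the ADP receptor gene of microglia, and C1qc. P2ry12 had 679 of 783 reads (86.7%) in an intron feature on chromosome 3 at 59024098, minus strand, and 92 (11.7%) in the upstream feature at 59066761, which lies 42663 bases before it. The leading intron feature had reads in all 22 biopsies and held 88.3% of WT and 84.4% of BERKO reads of the gene. C1qc had 132 of 220 reads (60.0%) in its 5′ UTR feature and 88 (40.0%) in a CDS feature. The 3 C1q genes lie side by side on the minus strand of chromosome 4, with leading 5′ UTR features at 136442049 (C1qb), 136448807 (C1qc) and 136454685 (C1qa), 6758 and 5878 bases apart. Since this assay counts 5′ ends, reads were not divided by length. Over the 3 genes C1qb had 4554 reads, C1qa 2342 and C1qc 220, so C1qc, which lies between the others, had the fewest reads.

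**Figure D1:**
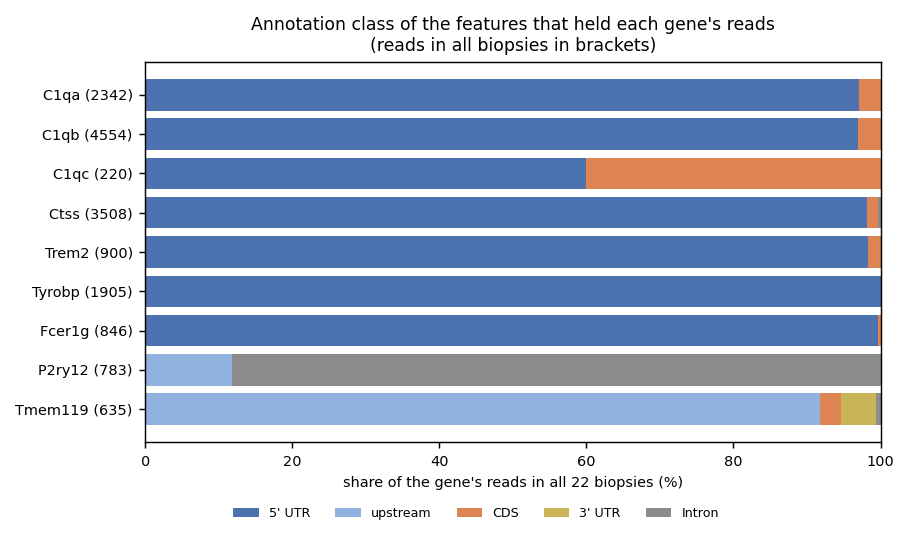
Share of each gene's reads (x axis, percent of reads in all 22 biopsies) by annotation class of the feature they fell in, with the genes on the y axis and their reads in brackets. P2ry12 stands out with 86.7% of its reads in 1 intron feature, and C1qc with 40.0% in CDS, while Tyrobp has all reads in the 5′ UTR class.

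RefSeq promoter sequence (GRCm38.p6) was at hand for 6 of the 9 genes and covers the 250 bases before the annotated start. It is shown for Ctss, whose levels did not overlap between the genotypes, for Trem2, and for the C1q neighbours C1qb and C1qc, whose read numbers differed most. Capitals mark GAGGAA on either strand (TTCCTC on the printed strand where the match is on the other). This is the core of the PU-box bound by PU.1, a transcription factor of the macrophage lineage. Positions are chr3:95526536-95526785 (plus) for Ctss, chr17:48346151-48346400 (plus) for Trem2, chr4:136886201-136886450 (minus) for C1qb and chr4:136892915-136893164 (minus) for C1qc, and each runs 5′ to 3′ toward the gene.
Ctss: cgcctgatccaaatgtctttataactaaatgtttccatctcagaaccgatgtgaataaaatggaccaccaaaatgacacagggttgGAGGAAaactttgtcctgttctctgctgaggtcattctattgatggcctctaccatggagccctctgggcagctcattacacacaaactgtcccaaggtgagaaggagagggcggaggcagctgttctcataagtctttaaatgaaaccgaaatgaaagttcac
Trem2: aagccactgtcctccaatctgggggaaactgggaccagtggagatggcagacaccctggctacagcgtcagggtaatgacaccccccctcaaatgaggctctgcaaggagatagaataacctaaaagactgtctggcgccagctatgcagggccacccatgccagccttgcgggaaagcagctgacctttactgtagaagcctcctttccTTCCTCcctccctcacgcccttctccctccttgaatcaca
C1qb: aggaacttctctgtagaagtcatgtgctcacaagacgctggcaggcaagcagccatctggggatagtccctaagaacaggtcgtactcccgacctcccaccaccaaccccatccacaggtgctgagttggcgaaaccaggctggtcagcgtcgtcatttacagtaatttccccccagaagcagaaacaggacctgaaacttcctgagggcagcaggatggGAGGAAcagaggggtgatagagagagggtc
C1qc: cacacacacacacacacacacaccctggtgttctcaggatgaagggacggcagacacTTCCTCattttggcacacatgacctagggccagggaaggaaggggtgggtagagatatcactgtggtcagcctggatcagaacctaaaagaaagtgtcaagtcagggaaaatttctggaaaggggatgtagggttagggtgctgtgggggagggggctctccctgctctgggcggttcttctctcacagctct

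GAGGAA occurred in 4 of the 6 promoters, those printed, and in 23.3% of 32851 promoter windows of the same length in the table. The match nearest to a start was in C1qb, 25 bases before it, followed by Trem2 at 35, Ctss at 159 and C1qc at 188 bases. Fcer1g and P2ry12 held no GAGGAA in the window. The P2ry12 window lies before the annotated start, whereas 86.7% of the reads of that gene began in the intron feature. Of 8 motifs searched on both strands, GAGGAAGT, which overlaps the first, was in C1qc alone of the 6 (2.44% of all windows), CACGTG, the E-box of the lysosomal gene factor TFEB, in P2ry12 alone (6.02%) and TATAAA in Ctss alone (12.4%). Shifted forms of the PU-box gave other counts. GAGGAAG was in 2 of the 6 and in 10.6% of all windows. For AGGAAG the counts were 5 and 29.5%, and for GGAAGT 3 and 19.7%. The C/EBP site TTGCGCAA was in none of the 6 and in 0.164% of all windows. A match is a string in a window and was not tested as a binding site.

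In the genotype comparison 7 of 9025 genes tested (0.0776%) passed edgeR's quasi-likelihood test at an adjusted p of 0.05, 4 of them higher in BERKO (0.0443%). None of the 9 genes passed. At an unadjusted p of 0.05, 4 of the 9 were higher in BERKO (C1qa, C1qb, Ctss and Fcer1g) and none lower. Of all genes tested 476 were higher (5.27%) and 895 differed in either direction (9.92%). Of neuronal markers tested, 6 of 12 were higher and 1 lower, and 5 of 14 astrocyte markers were higher. The share at that p was smaller in the other marker lists, with 1 of 10 endothelial and 1 of 14 microglial markers higher. The 9 genes and the lists were chosen with earlier results of these data known. Of the 9, 2 had a p under 0.05 on leaving out WT mouse 1, WT mouse 6, BERKO mouse 2, BERKO mouse 3 or BERKO mouse 5, and 2 without the 3 WT biopsies that stood apart. The log2 change was positive for 8 of the 9 genes with a median of 0.34, against 49.2% of all genes with a median of -0.01. C1qc was the exception. Most markers of other cell types were positive too, with 10 of 12 neuronal, 13 of 14 astrocyte and 9 of 10 endothelial markers tested. Of red blood cell markers 1 of 2 was positive, and the 1 neutrophil or lymphocyte marker tested was negative. The summed level of the 9 genes was 753 ± 136 CPM in WT (SD, n = 6 mice, 531.6 to 931) and 993 ± 117 CPM in BERKO (n = 5, 852 to 1144), with 3 of 5 BERKO mice above every WT mouse. WT mouse 1 had the lowest sum and the lowest level of all 11 mice in 4 of the 9 genes, and BERKO mouse 2 had the highest level in 5 of the 9. With those 3 WT biopsies left out the median change of the 9 genes was 0.20.

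**Figure D2:**
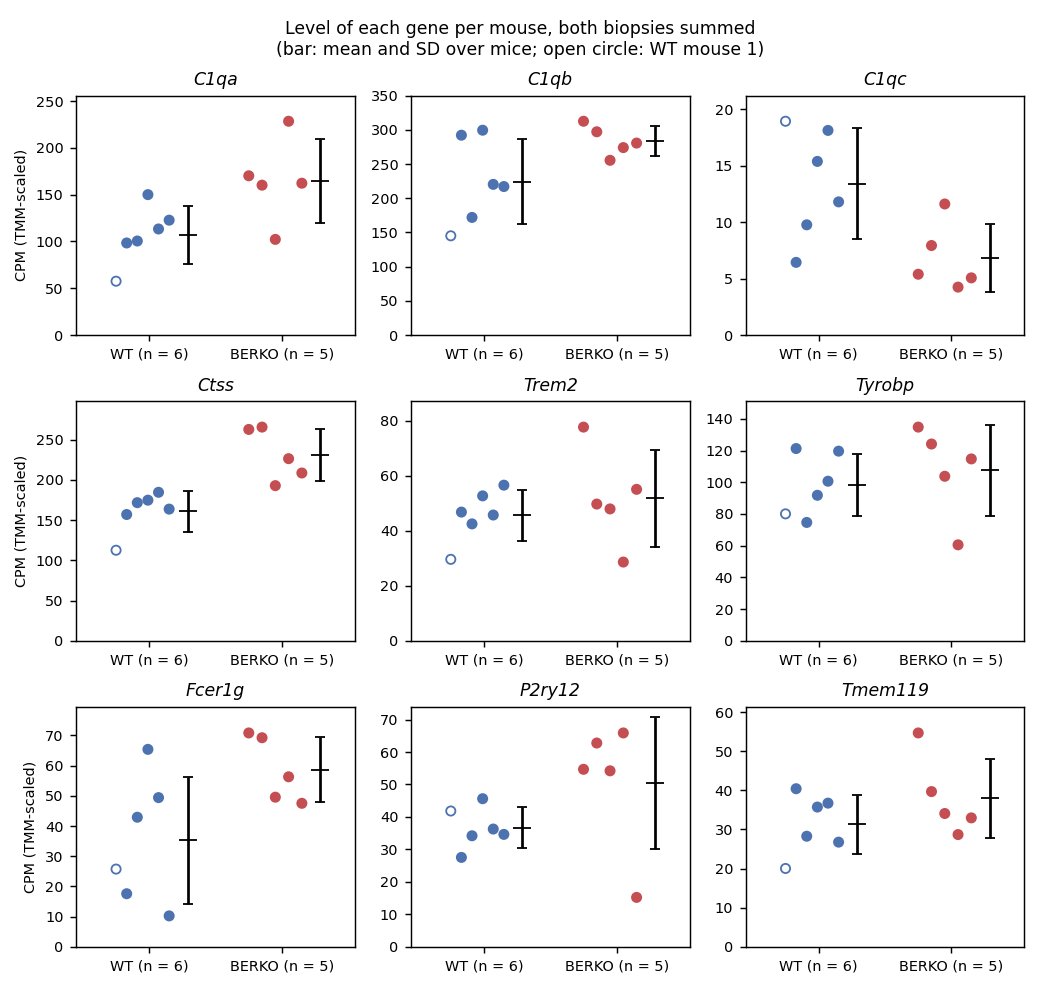
Level of each gene (y axis, TMM-scaled CPM) in each mouse, with WT in blue and BERKO in red, an open circle for WT mouse 1, and a bar for the mean and SD. Only for Ctss do the 5 BERKO mice (192.8 to 265 CPM) all lie above the 6 WT mice (112.6 to 184.5 CPM).

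Ctss encodes cathepsin S, a cysteine protease of lysosomes that keeps its activity at neutral pH. Its level was 113, 157, 172, 175, 185 and 164 CPM in WT mice 1 to 6 and 263, 265, 193, 226 and 208 CPM in BERKO mice 2 to 6. Every BERKO mouse lay above every WT mouse, which held for 66 of all 9025 genes (0.731%). Groups with no overlap in either direction were found for 120 genes (1.33%). The means were 160.7 ± 25.4 CPM (SD, n = 6) and 231 ± 32.3 CPM (n = 5), a log2 change of 0.53 ± 0.15 (SE). It did not pass, with an adjusted p of 0.231 in edgeR. WT mouse 1 was the lowest mouse, and with those 3 WT biopsies left out the log2 change was 0.42 ± 0.15 (adjusted p = 0.412 in edgeR). Over 24 fits on counts in edgeR, DESeq2 and limma that differed in scaling, filter, tool or mice, the adjusted p for Ctss ran from 0.0645 (DESeq2) to 0.412.

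C1qa and C1qb had higher means in BERKO mice, and C1qc a lower mean. C1qa was 57.6, 98.4, 100.5, 150.0, 113 and 123 CPM in WT mice 1 to 6 and 170.2, 160.2, 102.2, 228 and 162 CPM in BERKO mice 2 to 6. In 4 of 5 BERKO mice C1qa was above every WT mouse, and BERKO mouse 4 lay among the WT mice. The log2 change was 0.62 ± 0.21 (107 ± 30.7 against 165 ± 44.8 CPM, SD) with an adjusted p of 0.324 in edgeR. C1qb was 145, 292, 172, 299.5, 220.3 and 217 CPM in WT and 313, 297, 256, 274 and 281 CPM in BERKO mice. The BERKO mice lay at 284 ± 21.9 CPM (SD) and the WT mice at 224 ± 62.2 CPM. BERKO mouse 2 was above every WT mouse and the other 4 were within the WT range. For C1qb the log2 change was 0.34 ± 0.17 (adjusted p = 0.503, edgeR), and 0.20 ± 0.16 with those 3 WT biopsies left out.

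C1qc, the third chain of the same protein, was 18.9, 6.44, 9.77, 15.4, 18.1 and 11.8 CPM in WT and 5.39, 7.94, 11.6, 4.25 and 5.07 CPM in BERKO mice. Here 3 of 5 BERKO mice lay below every WT mouse and none above the WT median. The log2 change was -0.96 ± 0.51, which did not pass (adjusted p = 0.530 in edgeR). These values rest on 175 reads in WT and 45 in BERKO. In the left biopsies of WT mouse 6 and BERKO mouse 4 C1qc had 0 reads, where 3 reads would be 5.94 and 6.74 CPM. As a share of the reads of the 3 C1q genes, C1qc made up 4.24 ± 2.39% in WT mice (SD, 1.62 to 8.55%) and 1.58 ± 0.928% in BERKO mice (0.839 to 3.14%), and the groups overlapped. C1qa made up 31.0 ± 4.55% and 35.6 ± 6.22%. These shares come from the same reads as the levels and were not tested.

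Trem2 and Tyrobp form a receptor and its signalling chain, and their levels overlapped between the genotypes. Trem2 was 29.7, 46.9, 42.6, 52.8, 45.8 and 56.7 CPM in WT and 77.8, 49.8, 48.0, 28.7 and 55.1 CPM in BERKO mice. The lowest and the highest of all 11 mice were both BERKO, mice 5 and 2. The log2 change was 0.20 ± 0.26 (adjusted p = 0.850 in edgeR). It ran from 0.01 without BERKO mouse 2 to 0.35 without BERKO mouse 5. Tyrobp was 80.1, 121, 74.7, 91.8, 100.7 and 119.6 CPM in WT and 135, 124, 104, 60.6 and 115 CPM in BERKO mice. BERKO mouse 5 was again lowest and BERKO mouse 2 highest. The left biopsy of BERKO mouse 5 had 1 sequencing run where the others had 3, with 6 reads of Trem2 and 21 of Tyrobp. Its right biopsy was the lowest BERKO right biopsy in both genes, at 29.6 and 50.7 CPM. Without the left biopsy the log2 change was 0.21 for Trem2 and 0.13 for Tyrobp. The log2 change of Tyrobp was 0.14 ± 0.20 (adjusted p = 0.864, edgeR), and leaving out 1 mouse moved it to between 0.0560 (BERKO mouse 2) and 0.294 (BERKO mouse 5). The ratio of Trem2 to Tyrobp reads was 0.472 ± 0.0873 (SD) in WT and 0.479 ± 0.0632 in BERKO mice.

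Fcer1g encodes the common gamma chain of Fc receptors. It was 25.7, 17.6, 42.9, 65.4, 49.4 and 10.2 CPM in WT and 70.8, 69.3, 49.6, 56.3 and 47.5 CPM in BERKO mice. The WT mice were widely spread, at 35.2 ± 21.0 CPM (SD), the BERKO mice lay at 58.7 ± 10.9 CPM, and 2 of them were above every WT mouse. The log2 change was 0.72 ± 0.34, which did not pass (adjusted p = 0.482 in edgeR). It ran from 0.55 without WT mouse 6 to 0.98 without WT mouse 4. Per read of Tyrobp, Fcer1g stood at 0.388 ± 0.247 in WT and 0.581 ± 0.202 in BERKO mice.

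P2ry12, the receptor through which microglial processes follow ADP and ATP, was 41.8, 27.5, 34.2, 45.6, 36.3 and 34.6 CPM in WT and 54.7, 62.8, 54.2, 65.9 and 15.2 CPM in BERKO mice. BERKO mice 2 to 5 all lay above the WT mice, and BERKO mouse 6 lay below them all. That mouse was low in both biopsies, at 18.4 CPM (17 reads) on the right and 10.7 CPM (7 reads) on the left. Its Fcer1g (47.5 CPM) was also the lowest of the 5 BERKO mice. Its other members, among them C1qb (281 CPM) and Trem2 (55.1 CPM), lay within the range of the other BERKO mice. The log2 change of P2ry12 was 0.45 ± 0.29 (adjusted p = 0.611 in edgeR) with all mice and 0.69 ± 0.25 (adjusted p = 0.359) without BERKO mouse 6. Tmem119, a transmembrane protein gene of unsettled function, was 20.0, 40.4, 28.3, 35.7, 36.7 and 26.8 CPM in WT and 54.7, 39.7, 34.1, 28.7 and 32.95 CPM in BERKO mice. The groups overlapped, and only BERKO mouse 2 was above every WT mouse. Its log2 change was 0.28 ± 0.28 (adjusted p = 0.779, edgeR), 0.12 without BERKO mouse 2 and 0.18 without WT mouse 1.

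The sides were also taken apart. In the right biopsies 5 of 7696 genes passed in edgeR (0.0650%) and in the left biopsies 0 of 6616 (0%), where 447 genes had an unadjusted p under 0.05 and DESeq2 gave 2. No member passed on either side. Of the 9 tested on the right 8 were positive (median 0.31), and of the 8 tested on the left all were (median 0.36), with C1qc left out there by the filter on low counts. The right log2 change of C1qa was 0.67 ± 0.29 and the left 0.51 ± 0.25, and those of Ctss were 0.55 ± 0.20 and 0.40 ± 0.24. In the right biopsies the Ctss groups overlapped slightly, with WT at 108.7 to 208 CPM and BERKO at 204 to 337 CPM.

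Fcer1g and P2ry12 stood out by side. Fcer1g in the right biopsies was 27.2 ± 11.2 CPM in WT (SD, n = 6, 7.83 to 36.2) and 60.7 ± 3.31 CPM in BERKO (n = 5, 55.8 to 64.6). Every BERKO right biopsy was above every WT right biopsy, as for 44 of 7696 genes (0.572%), and Fcer1g was the sole member of the 9 for which this held. The log2 change was 1.13 ± 0.35 (adjusted p = 0.402, edgeR). In the left biopsies Fcer1g overlapped widely, at 9.49 to 109 CPM in WT and 27.6 to 83.8 CPM in BERKO, with a log2 change of 0.16 ± 0.50. For P2ry12 the right biopsies gave a log2 change of 0.67 ± 0.35 and the left 0.05 ± 0.43. The difference between the sides was itself tested with the mouse as a block: 0 of 8308 genes passed (0%; 271 at an unadjusted p under 0.05). For Fcer1g it was -0.86 ± 0.56 and for P2ry12 -0.68 ± 0.53 (left minus right; adjusted p = 0.998 for both in edgeR).

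**Figure D3:**
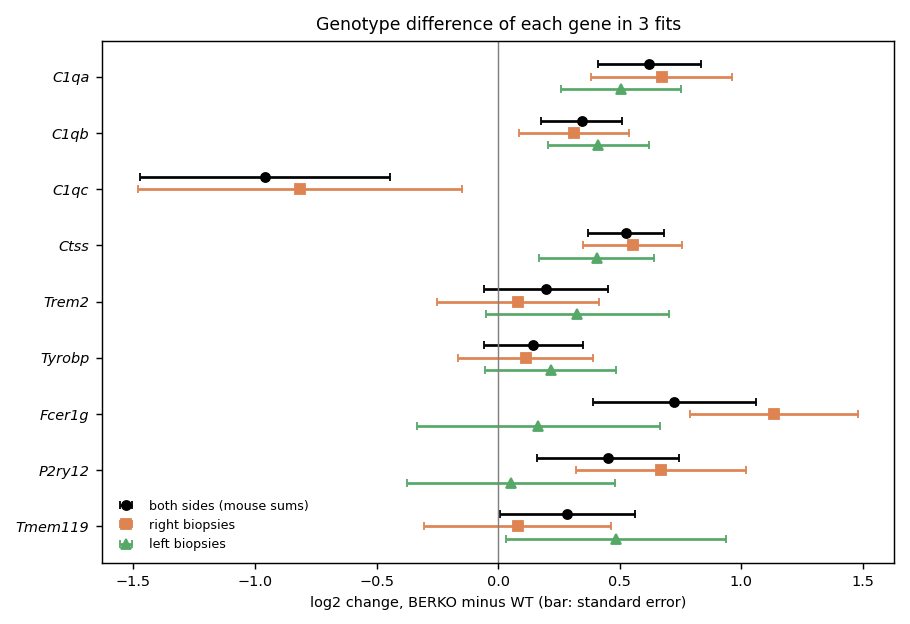
Log2 change, BERKO minus WT, of each gene (y axis) with its standard error, for mouse sums (black circles), right biopsies (orange squares) and left biopsies (green triangles; C1qc not tested). All but C1qc lie to the right of 0, and Fcer1g differs most between the sides (1.13 right, 0.16 left).

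Between the left and right biopsies of the same mice, 0 of 8308 genes passed (0%, edgeR with the mouse as a block), 463 genes had an unadjusted p under 0.05 and none of the 9 was among these. DESeq2 gave 33 genes. The changes, left minus right, lay between -0.42 ± 0.73 for C1qc and 0.21 ± 0.32 for Tmem119, with C1qb at 0.20 ± 0.15 and Ctss at -0.12 ± 0.16. Tmem119 was higher on the left in 8 of 11 mice and Ctss in 5 of 11, with the others in between. P2ry12 was higher on the left in 5 of 6 WT mice and 1 of 5 BERKO mice, and this contrast is the P2ry12 value by side that did not pass. Biopsies of the same mouse could lie far apart: Fcer1g in WT mouse 4 was 35.7 CPM on the right and 109 CPM on the left.

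**Figure D4:**
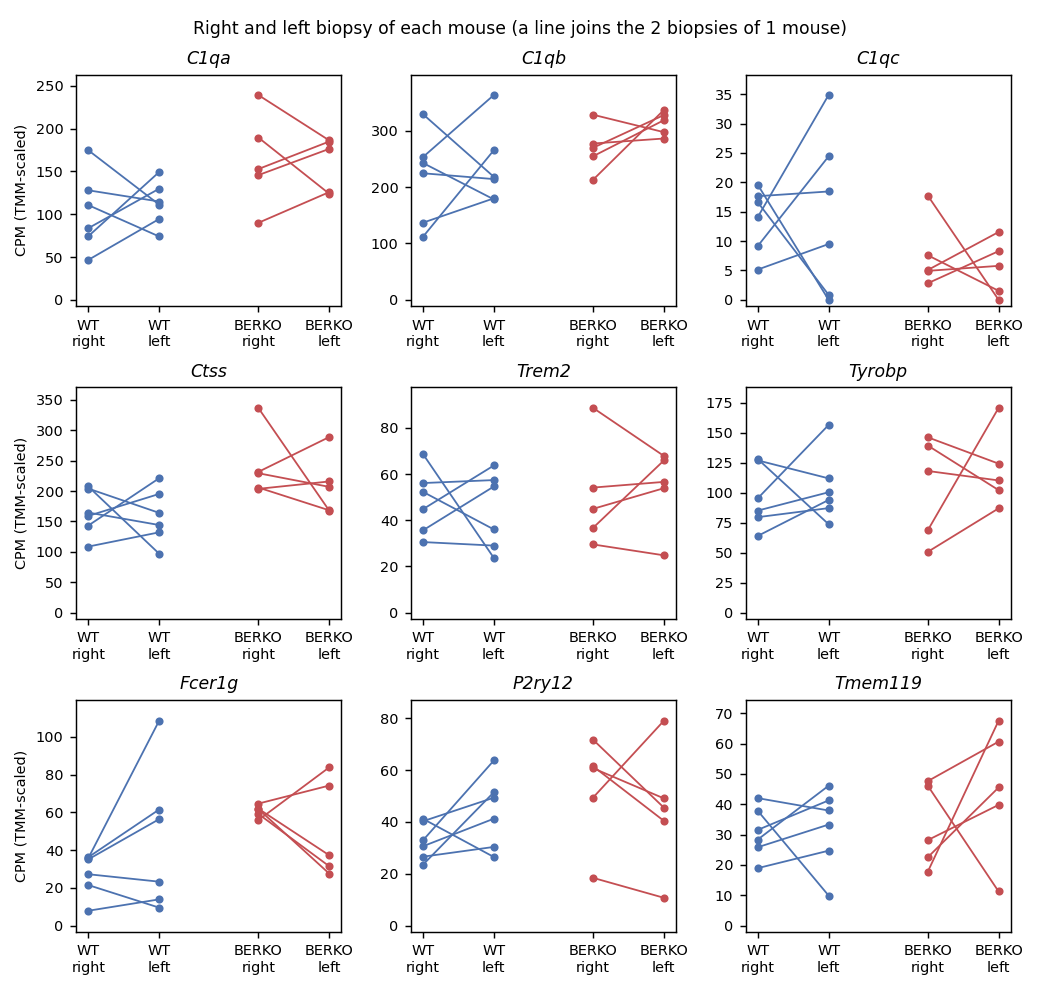
Level of each gene (y axis, TMM-scaled CPM) in the right and left biopsy of each mouse, joined by a line, WT in blue and BERKO in red. The 5 BERKO right biopsies of Fcer1g (55.8 to 64.6 CPM) lie above the 6 WT right biopsies (7.83 to 36.2 CPM).

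Split by class, the values were as follows. With promoter features alone 5 of 7014 genes passed (0.0713%) and no member of the 8 tested, P2ry12 being filtered out. Ctss was 0.62 ± 0.15 (adjusted p = 0.157), C1qa 0.74 ± 0.22 (0.283), C1qb 0.47 ± 0.17 (0.415) and C1qc -0.69 ± 0.63 (0.798, all edgeR). With gene body features alone 0 of 4770 genes passed (0%; 319 at an unadjusted p under 0.05), and only C1qb (-1.32 ± 0.79) and P2ry12 (0.12 ± 0.31) of the 9 could be tested. Scaled to the reads of the whole mouse in place of those of the class, C1qb in the gene body class was -0.998 ± 0.792 and P2ry12 0.45 ± 0.32, where the median of all genes was 0.30 in place of -0.01 and 631 genes had an unadjusted p under 0.05. On the deposited features 15 of 13128 passed (0.114%). The 9 member features tested, the leading feature of each gene, did not.

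Of the 5 members in which the change could be compared between the classes, C1qb had the largest difference on the log2 scale. Its promoter share was 95.9% of 2705 reads in WT and 98.4% of 1849 reads in BERKO, with 110 and 29 gene body reads. WT mice 1 and 2 held 33 and 38 of the WT gene body reads, and the other WT mice 5 to 12 each. BERKO mouse 4 held 19 of the 29 BERKO gene body reads, and the other BERKO mice 1 to 4 each. The promoter share moved further in C1qc (57.7% and 68.9%), Tmem119 (90.7% and 93.6%) and Trem2 (97.3% and 100%). In all genes together the gene body share went the other way, at 17.0 ± 1.85% (SD) in WT and 20.4 ± 1.35% in BERKO mice. The test of whether the genotype change differed between the classes gave 1.48 ± 0.73 for C1qb (promoter minus gene body; adjusted p = 0.491), against a median of -0.37 over all genes. It was 2.46 without BERKO mouse 4, where C1qb in the gene body class alone was -2.48, and 1.11 without BERKO mouse 6. The test called 0 of 4394 genes (0%, edgeR; 450 at an unadjusted p under 0.05), with 5 members tested.

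Other microglial markers were summed for comparison. Over 17 markers, microglia stood at 504 to 871 CPM in WT and 893 to 944 CPM in BERKO mice, and all 5 BERKO mice were above all 6 WT mice. Of the 14 of these markers tested, 12 were positive (median 0.35) and none passed. The sum of the 9 genes per unit of that marker sum was 1.03 ± 0.114 (SD) in WT and 1.08 ± 0.101 in BERKO mice, and overlapped. Border macrophage and monocyte markers summed to 25.7 to 105 CPM in WT and 74.3 to 122 CPM in BERKO over 15 of 17 markers in the table, of which 6 had at most 33 reads in all biopsies. The 4 of them tested were positive, with a median change of 0.53. Neutrophil and lymphocyte markers summed to 0.787 to 57.6 and 1.55 to 23.4 CPM over 8 of 14. Red blood cell markers, 2 of 8 in the table, summed to 89.7 to 648 CPM in WT and 111 to 248 CPM in BERKO. These and the neutrophil and lymphocyte sums did not reach higher in BERKO, whereas the sums for the remaining cell types did. The 13 neuronal markers summed to 8276 to 13225 CPM in WT and 12423 to 15405 CPM in BERKO. The 14 astrocyte markers summed to 6165 to 9592 and 8595 to 10619 CPM, and 14 endothelial markers to 299 to 648 and 556 to 788 CPM. Meningeal fibroblast markers (14) summed to 1971 to 9417 CPM in WT and 6491 to 11541 CPM in BERKO, 12 pericyte and smooth muscle markers to 245 to 504 and 439 to 806 CPM, and 15 oligodendrocyte markers to 2359 to 13101 and 6071 to 15547 CPM. The median change was 0.23 for neuronal, 0.27 for astrocyte, 0.29 for oligodendrocyte, 0.30 for endothelial, 0.32 for pericyte and 0.43 for meningeal fibroblast markers, against 0.34 for the 9 genes. The part of any of these in the values of the 9 genes was not tested.

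Genes that act with the members were read from lists that exclude them. Of 18 complement components, receptors and regulators tested, 11 were positive (median 0.12) and none passed. The smallest p was that of Clu, clusterin, an inhibitor of complement lysis that astrocytes also make, with 1794 ± 337 CPM in WT and 2433 ± 399.7 CPM in BERKO mice (log2 change 0.44 ± 0.13, adjusted p = 0.255 in edgeR). Csmd1, a complement inhibitor, had -3.47 ± 1.17 on a WT range of 2.36 to 129 CPM, and Sez6l2 0.37 ± 0.17. Of 14 lysosomal proteases and their inhibitors 12 were positive (median 0.15) and none passed. Among them Ctsh, cathepsin H, was 47.8 ± 21.8 and 79.6 ± 16.9 CPM (0.75 ± 0.25, adjusted p = 0.324). Ctsf, cathepsin F, was 39.1 to 51.7 CPM in WT and 54.5 to 67.8 CPM in BERKO (0.39 ± 0.21, adjusted p = 0.535). Its groups did not overlap, as for the 66 of 9025 genes (0.731%) with every BERKO mouse above every WT mouse. Ctsa, cathepsin A, had 0.30 ± 0.18. Of 30 other lysosome genes 18 were positive, with a median of 0.06 near the -0.01 of all genes, and none passed. The smallest p values were those of Cd63 (0.38 ± 0.16) and Gaa (-0.52 ± 0.23).

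Among 10 genes tested of signalling with Trem2, Tyrobp and Fc receptors, 7 were positive (median 0.26) and none passed. Sirpa, an inhibitory receptor for Cd47, had a log2 change of 0.49 ± 0.19, Apoe, a lipoprotein that Trem2 binds, 0.29 ± 0.13, and Siglech 0.54 ± 0.37. Of 24 homeostatic microglia genes 20 were positive (median 0.27) and none passed. Cx3cr1, the fractalkine receptor, was 43.9 to 56.7 CPM in WT and 61.3 to 99.1 CPM in BERKO mice (0.62 ± 0.21, adjusted p = 0.314 in edgeR). Its groups did not overlap, as for the 66 of 9025 genes (0.731%) with every BERKO mouse above every WT mouse. Those of Cd81 (0.22 ± 0.13) overlapped. Of 11 genes of reactive microglia 8 were positive (median 0.29) and none passed, with Lpl, lipoprotein lipase, at 18.0 ± 6.99 CPM in WT and 8.63 ± 4.61 CPM in BERKO (-1.03 ± 0.46, adjusted p = 0.457) and Cd63 and Apoe as above.

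From biopsy to biopsy within a group the 9 genes did not move as 1 block. Deviations of log2(CPM + 1) from the mean of each genotype and side were compared over the 22 biopsies, which share mice in pairs and differ in depth. Of the 36 pairs of members 25 had a positive Pearson r, with a median of 0.17. The highest was that of Trem2 with Tyrobp, receptor and adaptor, at 0.63, followed by C1qc with Tmem119 at 0.62 and C1qb with Ctss at 0.50. C1qa and C1qb had 0.46, whereas C1qc had -0.12 with C1qa and -0.08 with C1qb. The lowest was C1qc with Tyrobp at -0.42. For C1qc, with 0 to 29 reads a biopsy, these values carry a large counting error.

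**Figure D5:**
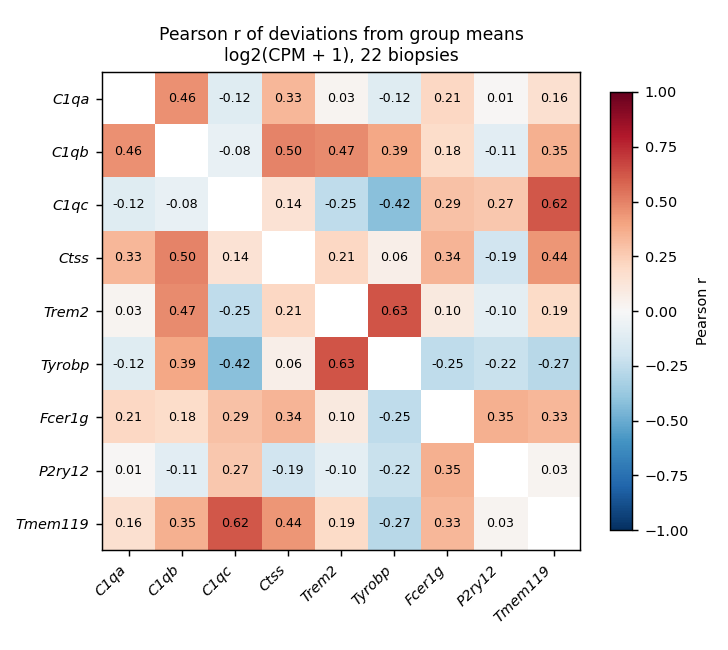
Pearson r between members (rows and columns) of deviations of log2(CPM + 1) from the 4 group means over 22 biopsies, from blue (-1) to red (1). Trem2 with Tyrobp (0.63) and C1qc with Tmem119 (0.62) are the highest, and C1qc with Tyrobp (-0.42) the lowest.

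Among 4730 other genes with a mean of at least 50 reads a mouse, the 8 whose deviations were most like the mean deviation of the members were Mlf2 (r = 0.77), Sun1 (0.76), Brd2 (0.75), Ccdc124 (0.74), Serf2 (0.73), Mt3 (0.73), Atp5g1 (0.71) and Uqcr11 (0.71). None of the 8 is a microglial marker on the lists used here. Their genotype changes lay between -0.05 ± 0.12 (Atp5g1) and 0.42 ± 0.18 (Mlf2), and none passed.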

How the data were processed

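RNA from the 22 biopsies was read as 5′ ends of transcripts (STRT). The submitters' processing notes name the mm9 build, Bowtie and TopHat2 2.0.12, without their roles. How features were drawn, and the aligner settings, are not given in the sources used here. A deposited table holds counts, whole reads per feature and run, and a second deposited table holds a ratio, that count divided by the spike-in total of the same run. Runs and sides were summed per mouse, with run and mouse numbers read from the column names. In 21 biopsies the first and last runs differed by less than sampling noise (chi-square per gene 0.69 to 0.849), and all runs were summed. The left biopsy of BERKO mouse 5 had 1 run and could not be checked. Biopsies of a group differed (4.32 to 22.0). In the main genotype fits the p-values set a difference against the variation between mice of this cohort. In fits with the mouse as a block they set it against the variation within mice.

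Features with 1 symbol (95410) were summed to 15297 genes. Reads outside these genes were 5.22% of endogenous reads and were left out. edgeR 4.0.16 (R 4.3.3) fitted all genes that passed filterByExpr with TMM scaling and a robust quasi-likelihood test, adjusted by Benjamini-Hochberg over all genes at 0.05, and the code was tested on simulated data. DESeq2 1.42.0 and limma 3.58.1 were alternatives. In the side comparison the mouse was the block, read from the replicate number in the labels. Deviations of the 2 biopsies correlated at -0.152 to 0.46 (median 0.0199). For 4 of 11 mice the best match was between biopsies of that same mouse. The pairing of biopsies rests on the reading of the labels. The 9 genes and all lists were chosen with earlier results of these data known. All 9 were named, and of each list the 3 genes with the smallest genotype p, except 1 gene not reported here. The 8 most like genes were ranked by Pearson r of deviations over 22 biopsies.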

Additional observations from a re-analysis of the deposited data

Results flagged for a closer look

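Among 54 groups of 5 or 6 values examined for a sample far from the others, 2 held such a sample, where chance gives about 1 in 20. Ctss in the right biopsy of BERKO mouse 3 was 337 CPM, and the next highest BERKO right biopsy was 232 CPM. Without that biopsy the right-side log2 change of Ctss was 0.41, and in the mouse sums it was 0.48 without BERKO mouse 3. P2ry12 in BERKO mouse 6 was 15.2 CPM, and the next lowest BERKO mouse was 54.2 CPM. Both biopsies of that mouse were low in P2ry12, and the log2 change without it was 0.69 ± 0.25 (adjusted p = 0.359 in edgeR).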

How the results depend on the processing

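None of the 9 genes passed in any of 130 fits, but not every fit tested all 9. Side in DESeq2 and the main gene body fit each gave an adjusted p for 2 of them. In the genotype comparison 8 genes kept a positive and C1qc a negative change in all 24 alternatives that fitted them (DESeq2 gave no adjusted p for 4 of the 9). The smallest adjusted p of a member there was 0.0645, for Ctss in DESeq2. With spike-in totals as library sizes the median of all genes was 0.19 in place of -0.01 and C1qa was 0.85 ± 0.24 (adjusted p = 0.0772). On log2(deposited ratio + 1), a compressed scale, the median change of the 9 was 0.02.

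The number of all genes that passed moved more, and the cause was not tested. For genotype (7, of them 4 higher in BERKO) it was 45 with spike-in totals (43 higher), 14 with no filter, 45 in DESeq2, 2 in limma-voom, 24 on the ratio (24 higher), 4 after thinning and 11 with the replicate number as a block. Fits with that block also left out WT mouse 1, whose number no BERKO mouse had. Leaving out each mouse in turn gave 1 to 18 (18 without WT mouse 4, 1 without BERKO mouse 3). On the right (5, 1 higher) it was 3 with spike-in totals (2 higher), 17 with no filter, 18 in DESeq2, 1 with the replicate block and 0 to 6 leaving out each biopsy. On the left (0) it was 22 with no filter, 2 in DESeq2 and 0 to 1 leaving out each biopsy (1 without WT left 4). Between sides (0) it was 9 with no filter, 33 in DESeq2 and 0 to 3 leaving out each mouse (3 without BERKO mouse 2). Promoter class (5, 2 higher) gave 4 with library sizes of the whole mouse (0 higher), 11 with no filter and 1 to 6 leaving out each mouse. Gene body class (0) gave 11 and 0 to 1 (1 without WT mouse 1 or BERKO mouse 2). Features (15) gave 139 with no filter.

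Small changes also crossed 0. With the replicate block, which also left out WT mouse 1, Trem2 was -0.0755 and Tmem119 -0.103 on the right and P2ry12 -0.00816 on the left. Leaving out WT mouse 1 with no block gave Trem2 -0.0210 and Tmem119 -0.0290 on the right. On the left it gave P2ry12 0.0896. With spike-in totals C1qa was -0.0161, Fcer1g -0.0500 and P2ry12 -0.0571 between sides, where the median of all genes was -0.18 in place of -0.0463. Leaving out each biopsy or mouse in turn, ranges that crossed 0 were, on the right, Trem2 -0.21 to 0.22, Tyrobp -0.0347 to 0.289 and Tmem119 -0.0948 to 0.238, and on the left Fcer1g -0.0925 to 0.62 and P2ry12 -0.27 to 0.32. Between sides they were Trem2 -0.11 to 0.13, Fcer1g -0.0808 to 0.216 and P2ry12 -0.00674 to 0.173. For genotype by side they were C1qb -0.10 to 0.28, C1qc -0.74 to 0.60, Ctss -0.32 to 0.0628 and Tyrobp -0.14 to 0.32, and for genotype by class C1qc -0.49 to 0.64, Ctss -0.39 to 0.23 and P2ry12 -0.33 to 0.30.

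The numbers 2 to 6 shared by WT and BERKO mice name animals of different genotype. Deviations of same-numbered mice correlated at -0.0353 to 0.0638. Since the 2 biopsies of a mouse had a median of 0.0199, this correlation cannot tell whether a shared number links biopsies. Why the replicate block moved the values was not tested. Without the mouse block the side fit again gave 0 genes. C1qc, with 220 reads, is limited most by depth.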
